A study of Danio rerio with 16 samples.

Results

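Short stretches of 2 to 3 kb without CpG methylation were followed in zebrafish embryos of 4 to 36 hours post fertilisation (hpf). They were found in 1 kb bins of the nuclear CpGs listed for both replicates: a bin counted as low when it held at least 3 CpGs and at least 20 calls summed over all 4 and 7 hpf libraries and when under 15% of those calls were methylated. Of 924945 bins with such data, 34487 (3.73%) were low. A run had to span exactly 2 or 3 adjacent low bins, and a bin without data ended it. This gave 7830 runs, 6692 of 2 bins and 1138 of 3 bins, out of 911711 regions when every string of low bins is counted as 1 region and every other bin as 1. The low bins also formed 738 longer runs of 4 kb or more and 12685 single bins.

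The bisulfite libraries came from sorted primordial germ cells (PGCs), which later give rise to eggs and sperm, and from age-matched somatic cells. All cells came from embryos with the kop-egfp-f-nanos3′UTR transgene, whose nanos3 untranslated region restricts the fluorescent reporter to germ cells (the study's name for the line adds a cry-DsRed marker), and were separated by fluorescence-activated sorting at the blastula (4 hpf) and gastrula (7 hpf) and at the pharyngula stages prim-5 (24 hpf) and prim-25 (36 hpf). There were 2 libraries for each of the 8 combinations. Per the study's methods the 4 hpf replicates were technical, so their spread may not cover differences between embryos, and how many embryos went into a pool is not given in the sources used here. The study's methods give N-phenylthiourea, an inhibitor of pigmentation, for embryos past 24 hpf, so in the comparison of 36 with 24 hpf this agent and the stage cannot be told apart. They also list several rearing temperatures without saying which embryos had which. Cell identity could not be checked against markers in the libraries used here, which measure methylation alone. The study itself estimated a high purity of its sorted PGCs and reported RNA of germline markers to be enriched in PGCs over soma.

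In vertebrate genomes most CpGs carry 5-methylcytosine (5mC), placed by DNA methyltransferases and removed either through oxidation by TET enzymes or by dilution at replication. The exceptions are short, CpG-rich stretches, often called CpG islands or non-methylated islands, many of which hold the promoters of genes. In zebrafish a part of these islands, among them promoters of germline genes, gains 5mC as the embryo develops. No annotation of the genome build of the files (danRer10) was used here, so the runs below are named by position and no genes are assigned to them.

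The runs were rich in CpGs, a property the rule did not ask for beyond its minimum. A run held a median of 40 listed CpGs, with an interquartile range of 28 to 57 and extremes of 6 and 256. The density had a median of 19 CpGs per kb, compared with 21.5 in the runs of 4 kb or more, 17 in single low bins and 8 in all other bins. Together the runs held 353879 CpGs, 3.45% of the 10260021 shared by both tables, and the median coverage of a run was 15.6 calls per CpG and library. The 3 runs with the most CpGs lay at chr24:1012001-1015000 with 256 CpGs, chr1:55160001-55163000 with 215 and chr6:59921001-59924000 with 193. The first of these stayed between 0.318% and 0.826% methylated in all 16 libraries and the second between 0.206% and 1.24%. The third was higher, between 1.57% and 3.78%.

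The runs were spread over all 25 chromosomes, from 10.1 per 1000 bins with data on chromosome 1 to 5.69 on chromosome 4. Chromosome 4 was uneven along its length. Its first 10 Mb held 15.8 runs per 1000 bins and the next 10 Mb 11.01, whereas the 4 windows between 30 and 70 Mb held 1, 1, 1 and 2 runs in all, which is 0.174 to 0.484 per 1000 bins. The last window, from 70 Mb, rose again to 3.66 per 1000 bins. The median distance from a run to the next string of low bins was 14 kb.

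Of the 15660 run ends, 60.9% bordered a bin with data and 39.1% a bin without. The bordering bins were mostly highly methylated at 4 and 7 hpf, with a median of 94.4% and with 77.3% of them at 80% or more. Few of the bins inside or bordering the runs lay close to the limit of 15%, with 212 inside at 14% or more and 46 bordering bins below 16%. The highest bin inside a run stood at 14.995% and the lowest bordering one at 15.02%. A bin at 10% or more was present in 1199 runs (15.3%). A methylated bin closed 3088 runs (39.4%) on both sides, and 1375 runs had none on either side.

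At 4 and 7 hpf, the stages that chose them, the runs were almost empty of 5mC. The level pooled over all their calls at 4 hpf was 1.71% ± 0.168 for PGCs (SD, n = 2 libraries here and below) and 1.85% ± 0.0529 for soma, and at 7 hpf PGCs had 2.02% ± 0.171 and soma 1.94% ± 0.198. For comparison, cytosines of the unmethylated lambda phage DNA added to each sample were read as methylated in 0.233% to 0.452% of calls in the 8 libraries of replicate 1. The lambda calls of replicate 2 numbered 50 to 221 per library and were too few to use. At 24 hpf the pooled level of PGCs was 2.33% ± 0.129 and that of soma 2.53% ± 0.0123, and at 36 hpf PGCs had 2.71% ± 0.186 and soma 2.69% ± 0.221. A rise from the early stages is in part built into the choice of low early bins, so it is given here without a test. Averaging the runs' own levels instead of pooling their calls gave values from 2.27% in PGCs at 4 hpf to 3.59% at 36 hpf.

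Most runs remained unmethylated through 36 hpf. The median level over runs was 1.24% and 1.29% in the early stages (4 and 7 hpf), 1.48% by 24 hpf and 1.51% by 36 hpf. Runs below 5% made up 86.2% at 4 hpf and 81.3% at 36 hpf, and 5140 runs (65.6%) were below 5% in every one of the 16 libraries. In all 8 libraries of 24 and 36 hpf, 7282 runs (93.0%) were below 15%. The mean of the 4 libraries of a stage was 15% or more in 22 runs at 4 hpf and in 18 at 7 hpf. It was so in 259 (3.31%) by 24 hpf and in 321 (4.10%) by 36 hpf. The rule kept only bins below 15% over the 4 and 7 hpf libraries together. The low early counts are therefore built in, and the increase after 7 hpf is a description only. The highest run reached 28.0% at 4 hpf and 67.7% at 36 hpf, when 16 runs were at 50% or more.

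The 321 runs that stood at 15% or more at 36 hpf were then described as a group. They were picked by their level at 36 hpf and are given without a test. Of these, 236 were already at 15% or more at 24 hpf and 85 only at 36 hpf, whereas 23 runs had reached 15% at 24 hpf and were below it at 36 hpf, with a median of 12.4%. In 226 of the 321 each of the 4 libraries at 36 hpf was at 15% or more. The group held 2.26% of all calls in the runs. Its part of the methylated calls went from 8.60% ± 0.225 to 23.1% ± 0.289 between 7 and 36 hpf for PGCs, and from 8.72% ± 1.44 to 23.1% ± 0.713 for soma. The remaining 7509 runs went from a pooled level of 1.89% ± 0.157 to 2.13% ± 0.144 over the same time in the PGC libraries, and from 1.81% ± 0.164 to 2.12% ± 0.159 in the soma libraries.

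**Figure D1:**
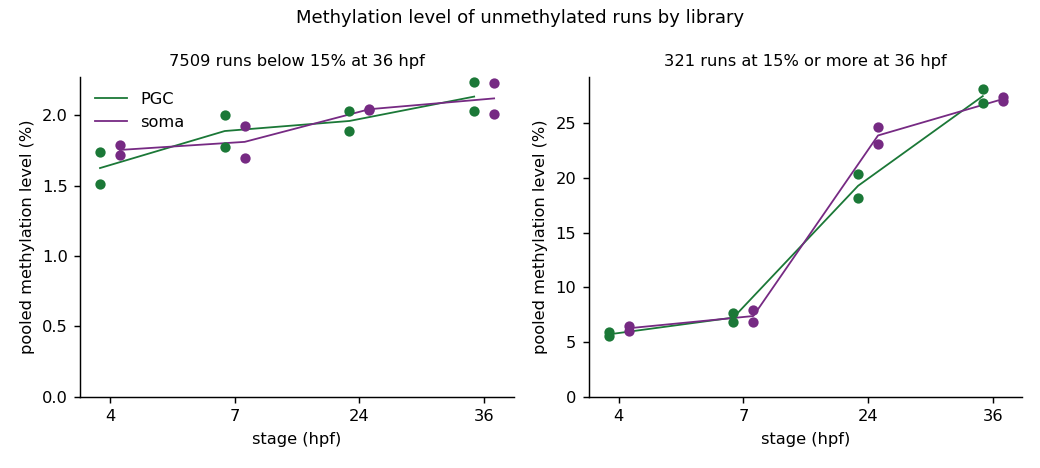
Methylation level (%, calls pooled over the runs) by stage (hpf, evenly spaced and not to scale in time) for the 7509 runs below 15% at 36 hpf, left, and the 321 runs at 15% or more, right, with different vertical scales; each point is 1 library, green for PGCs and purple for soma, and lines join the means. The runs on the left stay between 1.51% and 2.24%, and those on the right go from under 8% at 7 hpf to 26.9% to 28.1% at 36 hpf, with the PGC points below the soma points at 24 hpf.

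Runs that were methylated at 36 hpf were poorer in CpGs. They had a median of 14.3 CpGs per kb, against 19.5 in the others. The share at 15% or more at 36 hpf was 9.57% (94 of 982) among runs with up to 10 CpGs per kb, 4.84% between 10 and 15, 4.16% between 15 and 20, 3.23% between 20 and 30, 0.656% between 30 and 40 and 0.257% (1 of 389) above 40. The same share was 4.38% in runs of 2 bins and 2.46% in runs of 3 bins, and outside the runs it was 10.3% in single low bins and 1.36% in runs of 4 kb or more. It also depended on the level that the rule itself used: 2 of 3387 runs below 1% at 4 and 7 hpf were at 15% or more at 36 hpf, against 69 of 167 (41.3%) that had begun between 10% and 15%. CpG-poor runs began higher, with a median early level of 2.15% up to 10 CpGs per kb and 0.630% above 40, so density and starting level were not separated. The level that the rule used was 7.11% in the median of the 321, and 20 of them had begun below 2%.

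**Figure D2:**
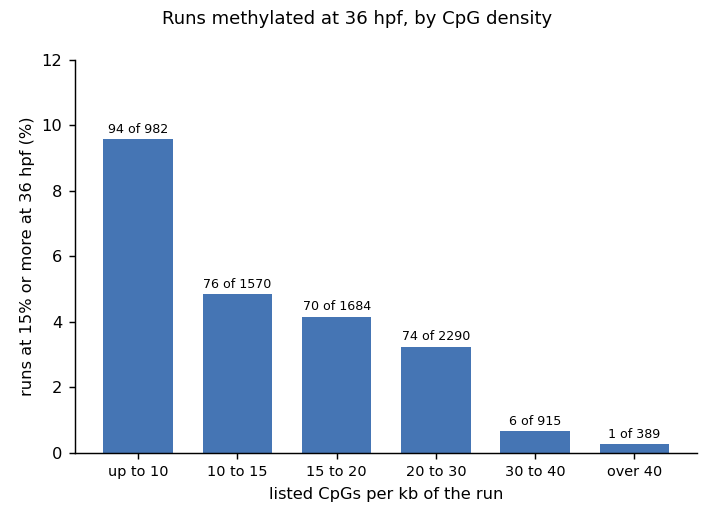
Share of runs (%) at 15% or more at 36 hpf, mean of the 4 libraries, by the number of listed CpGs per kb of the run, with the number of such runs of all runs in the class above each bar. The share goes from 9.57% in the class of up to 10 CpGs per kb to 0.257% in the class above 40.

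From 4 to 36 hpf the level also rose at the centre of the runs. The 4 hpf libraries helped choose the runs, so a part of this rise is built in. Around the centre of all 6692 runs of 2 kb, the level within 500 bases of the centre went from 0.860% ± 0.118 at 4 hpf to 1.66% ± 0.0259 at 36 hpf in PGCs, and from 0.895% ± 0.0160 to 1.66% ± 0.0853 in soma. The outermost 200 bases inside the run had 13.5% ± 0.471 at 4 hpf in PGCs and 14.6% ± 0.139 in soma. By 36 hpf they had 15.9% ± 1.23 and 15.8% ± 1.34. From 4 hpf the edges thus rose by at least as many points as the centre, though within the spread for soma. From 7 hpf on, with 15.4% ± 1.12 for PGCs and 14.7% ± 1.47 for soma, the edges differed by less than the spread between libraries. Beyond the edges the level over all these runs fell, as it did in the bins that were not low. Pooled over all of those bins, it went from 93.7% ± 0.0780 at 4 hpf to 89.6% ± 0.159 at 36 hpf in PGCs. In soma it went from 93.3% ± 0.411 to 89.6% ± 0.483. Between 1500 and 2000 bases from the centre the level went from 89.98% ± 0.0567 at 4 hpf down to 86.4% ± 0.228 at 36 hpf in PGCs, and from 89.8% ± 0.237 down to 86.4% ± 0.600 in soma.

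In the 293 runs of 2 kb that were at 15% or more at 36 hpf, the core itself was methylated. Since most of their CpGs lay in the core and they were picked by their level at 36 hpf, this is in part built in. Within 500 bases of the centre PGCs had 3.50% ± 0.336 and 4.86% ± 0.212 in the early stages, then 17.6% ± 1.51 at 24 hpf and 25.7% ± 0.817 at 36 hpf. For soma the same bases had 4.02% ± 0.206 and 5.41% ± 0.787 early, then 22.3% ± 0.825 and 25.5% ± 0.00195. Both bins were at 15% or more in 189 of these runs (64.5%), with a median of 18.8% in the lower bin and 30.8% in the higher. Unlike in all runs, the flanks of these 293 rose within 2000 bases of the centre. They had begun lower than those of all runs, and the 293 were picked by their level at 36 hpf. No rise was seen between 2000 and 3000 bases, where PGCs had 76.5% ± 0.517 at 4 hpf and 76.0% ± 0.319 at 36 hpf. Soma had 76.6% ± 0.456 and 76.2% ± 0.497 there. Further out, between 3000 and 5000 bases, PGCs went from 68.2% ± 0.813 at 4 hpf to 70.1% ± 0.540 at 36 hpf. Soma went from 68.6% ± 2.99 to 70.3% ± 0.204, within its spread at 4 hpf. Between 1000 and 1500 bases from the centre PGCs went from 63.8% ± 2.32 at 4 hpf to 71.6% ± 1.27 at 36 hpf and soma from 63.7% ± 0.130 to 71.4% ± 0.7501, and between 1500 and 2000 bases PGCs went from 76.6% ± 2.37 to 80.97% ± 1.13 and soma from 76.97% ± 0.380 to 80.7% ± 0.979. The core was also the CpG-rich part of a run. All runs of 2 kb had 30.7 listed CpGs per kb within 500 bases of the centre and 7.00 between 800 and 1000 bases. Outside them, between 1000 and 1500 bases, there were 5.16. In the 293 runs these densities were 21.9, 6.98 and 5.68.

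**Figure D3:**
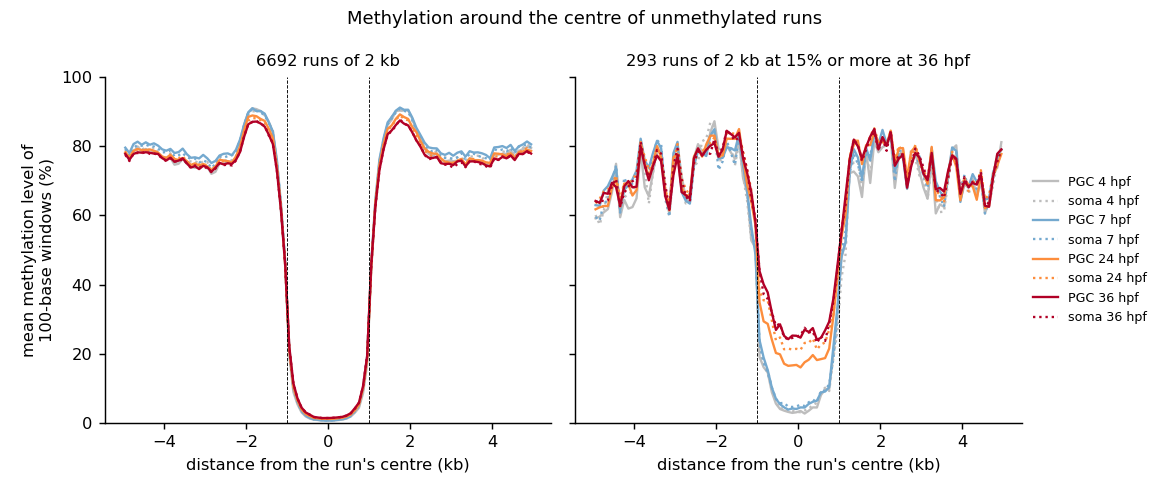
Mean methylation level (%) of 100-base windows by distance (kb) from the centre of the 6692 runs of 2 kb, left, and of the 293 of them at 15% or more at 36 hpf, right; colours mark the stage, solid lines PGCs and dotted lines soma (means of 2 libraries), and dashed vertical lines the run's edges. On the left all lines meet near 1% at the centre, and on the right the line of PGCs at 24 hpf, 17.6% within 500 bases of the centre, lies below that of soma, 22.3%.

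Most borders stayed in place. The width of a run was measured between the nearest CpGs at 50% or more on either side of its centre, using CpGs with at least 10 calls at each stage. Runs of 2 kb had a median width of 2887 bases at 4 hpf and 2870 bases at 36 hpf, and runs of 3 kb 3850.5 and 3843 bases. At 4 hpf the width was over 5000 bases in 11.6% of the runs of 2 kb and 20.4% of those of 3 kb. The distance between these CpGs could thus be much longer than the run. It also spans stretches without CpGs or without enough calls, so it need not be unmethylated throughout. Runs of 2 kb with a width under 1000 bases went from 12 at 4 hpf to 114 at 36 hpf (1.70%). Between 24 and 36 hpf 682 of 7827 runs widened, 752 narrowed and 81.7% kept the same border CpGs. Within the runs, 6422 of 349765 CpGs with enough calls (1.84%) were at 50% or more at 4 hpf and 7854 (2.25%) at 36 hpf, and they carried 45.6% and 41.0% of all methylated calls of these CpGs. The 4 hpf libraries helped choose the runs. A part of the increase in narrow runs and in CpGs at 50% or more is therefore built in.

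The libraries of 24 and 36 hpf took no part in choosing the runs and were tested against each other with edgeR's quasi-likelihood test on methylated and unmethylated counts. The fit used every region with at least 20 calls in each of the 8 late libraries, 792226 in all and 7824 of the runs, and adjusted p-values over all of them by the Benjamini-Hochberg method. A region was called at an adjusted p under 0.05 and a difference of at least 10 percentage points. The 8 libraries were taken as independent, although same-numbered PGC and soma libraries of a stage may share embryos. With both cell types together, 7 runs were called higher at 36 hpf and 0 lower, beside 0.013% of all tested regions higher and 0.62% lower. At an unadjusted p under 0.05 there were 499 runs higher (6.38%, all regions 0.715%) and 341 lower (4.36%, all regions 11.7%). The 4 libraries at 36 hpf all lay above the 4 at 24 hpf in 227 runs (2.90%, all regions 0.447%) and all below in 112 (1.43%, all regions 7.55%). The other low bins had similar shares. In runs of 4 kb or more 3.93% lay above and 1.76% below, and in single low bins 3.05% and 1.296%. Of the single low bins 18 were called higher and 3 lower, and of the runs of 4 kb or more 0 in either direction. The excess of rises over falls was thus not particular to runs of 2 to 3 kb. The median change was 0.02 points over the runs and -1.35 points over all regions. Highly methylated regions can fall further than runs near 0 can, so these shares describe the runs beside the genome and are no test of a difference between them.

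The calls changed when single libraries were left out. A fit with fewer libraries also has less power, so a lost call does not show that the remaining libraries lack the difference. Without replicate 2 of PGCs at 24 hpf or at 36 hpf 0 runs were called, and without replicate 1 of either stage 1 run was, at chr15:29077001-29080000. Without replicate 1 or 2 of soma at 24 hpf 4 and 5 runs were called, with 3 of the 7 among them in either case. Without replicate 1 of soma at 36 hpf 6 were called, 4 of them among the 7, and without replicate 2 there were 5 calls and 0 of the 7. The runs called without replicate 2 of soma at 36 hpf were highest, among the late libraries, in replicate 1 of soma at 36 hpf. They had 19.1% to 31.9% there and 1.04% to 6.15% in the library left out, so these calls rest largely on 1 library. With the replicate number as a block 17 runs were called higher, all 7 among them, and 1 lower. In contrast, limma on the arcsine square root of the levels called 0 runs.

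The largest rise was at chr4:52385001-52387000, a run of 21 listed CpGs in the sparse stretch of chromosome 4 and the only run between 50 and 60 Mb there. Between 24 and 36 hpf the PGC libraries went from 36.2% and 26.3% to 66.4% and 73.3%, and the soma libraries from 58.1% and 40.2% to 60.8% and 70.5%. The 4 libraries at 36 hpf lay above all 4 at 24 hpf, with a mean difference of 27.5 points (edgeR adjusted p = 0.0175). This run had begun high, at 10.6% over the 4 and 7 hpf libraries, and had as few as 86 calls in a late library.

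The run at chr18:22194001-22196000, of 50 CpGs, had also begun near the limit, at 10.4%. PGCs went from 29.9% and 28.8% to 51.9% and 49.2%, and soma from 39.6% and 33.5% to 48.4% and 55.1%. The rise of 18.2 points had an edgeR adjusted p of 0.0267, and no library at 36 hpf overlapped those at 24 hpf.

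The run at chr24:6321001-6323000, of 38 CpGs, started from 2.69%, the lowest level at 4 and 7 hpf among the 5 largest called rises. All 8 early libraries were between 0% and 5.03%. PGCs went from 37.4% and 27.3% to 56.5% and 50.8% between 24 and 36 hpf, and soma from 45.2% and 42.3% to 56.6% and 59.2%. The difference between the late stages was 17.7 points (edgeR adjusted p = 0.0448).

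At chr18:13476001-13478000, with 39 CpGs, PGCs went from 21.1% and 26.3% to 42.2% and 45.9% between 24 and 36 hpf. Soma went from 30.2% and 36.7% to 45.7% and 45.6%. The rise was 16.3 points (edgeR adjusted p = 0.0293). In this run too the 36 hpf libraries lay apart from all those of 24 hpf, and the 2 PGC libraries at 24 hpf lay below both soma libraries.

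At chr21:33352001-33354000, with 50 CpGs, the PGC libraries went from 24.3% and 18.0% to 36.3% and 34.5%, and the soma libraries from 28.0% and 30.6% to 44.2% and 39.8%. The rise was 13.5 points (edgeR adjusted p = 0.0462). The other 2 called runs, outside the 5 largest and named because the count is small, were both 3 bins long. The run at chr25:24136001-24139000 rose by 11.6 points from 14.8% to 26.4% (edgeR adjusted p = 0.0362), and that at chr15:29077001-29080000 by 10.02 points from 8.25% to 18.3% (edgeR adjusted p = 0.00883). In all 7 the libraries at 36 hpf lay above every library at 24 hpf, and the mean of PGCs was below that of soma at 24 hpf.

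**Figure D4:**
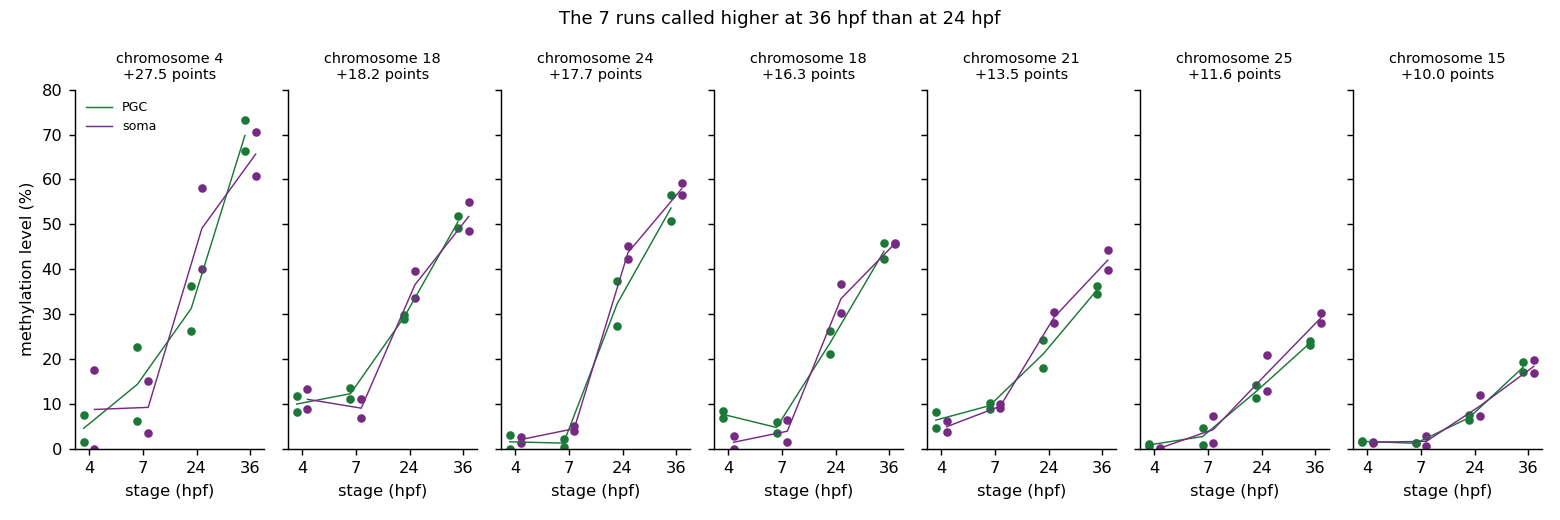
Methylation level (%) of the 7 runs called higher at 36 hpf than at 24 hpf, by stage (hpf, evenly spaced and not to scale in time), ordered by the size of the rise given above each panel; each point is 1 library, green for PGCs and purple for soma, and lines join the means of 2. The means at 36 hpf range from 18.3% to 67.7%, and in each panel every 36 hpf point is above every 24 hpf point.

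Within PGCs alone 1 run was called higher at 36 hpf, the one at chr4:52385001-52387000 with a rise of 38.6 points (edgeR adjusted p = 0.0483, all regions 0.000757%), and 0 lower (all regions 0.0661%). It was not called without any single PGC library of these stages. With the replicate number as a block 14 runs were called higher within PGCs, this one among them, and 1 lower, and within soma 1 higher. The run called within soma had 24.2% in replicate 1 and 2.64% in replicate 2 of soma at 36 hpf, so it rests on 1 library. Within soma alone 0 runs were called in either direction, beside 0.000252% of all regions higher and 0% lower. At an unadjusted p under 0.05 464 runs were higher (all regions 0.685%) and 271 lower (9.48%) within PGCs, and 251 higher (0.782%) and 252 lower (5.65%) within soma. The difference between the cell types in the stage change, tested as an interaction, was called for 0 runs and 0% of all regions, with 235 runs rising more in PGCs (all regions 1.1%) and 175 rising less (2.95%) at an unadjusted p under 0.05. That the call was made in PGCs and not in soma therefore does not show a difference between them. The change from 24 to 36 hpf was correlated between replicates over the runs with an r of 0.418 in PGCs and 0.108 in soma, over runs that share library and depth.

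Only 1 of the 5 runs with the highest level at 36 hpf among those with at least 50 calls per late library was among the called. The run at chr9:49075001-49077000 went from 45.0% and 39.8% to 67.5% and 63.1% in the PGC libraries, and from 59.4% and 59.3% to 67.1% and 60.9% in the soma libraries. Its rise of 13.8 points was not called (edgeR adjusted p = 0.130), and at 24 hpf PGCs lay below soma in both libraries. The run at chr11:6008001-6010000 showed the same order at 24 hpf, the PGC libraries at 37.2% and 35.0% and the soma libraries at 56.0% and 52.8%. It ended at 57.3%, 54.2%, 56.7% and 56.2% in the 4 libraries of 36 hpf, so the cell types then overlapped, and its rise of 10.8 points was not called (edgeR adjusted p = 0.331).

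The run at chr22:20252001-20254000 had 53.8% and 41.5% in PGCs at 24 hpf, then 72.6% and 58.3%, while soma had 51.2% and 55.4%, then 55.2% and 54.8%. Its stages overlapped. The run at chr5:17366001-17368000 had 8 CpGs only, and its PGC libraries at 24 hpf, 29.9% and 69.3%, were further apart than the stages were. Neither was called (edgeR adjusted p = 0.489 and 0.997).

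PGCs were next compared with soma of the same age. At 24 hpf 0 runs were called in either direction, like 0% of all regions, and at 36 hpf again 0 of either. At an unadjusted p under 0.05, 206 runs were higher (2.63%, all regions 3.69%) and 310 lower (3.96%, all regions 1.06%) in PGCs of 24 hpf. For PGCs of 36 hpf 161 were higher (2.06%, all regions 1.47%) and 169 lower (2.16%, all regions 1.33%). With 2 libraries a group, a count of 0 does not show that the cell types had the same level in any run, since on simulated data this test missed even large changes. The median of PGC minus soma over the runs was -0.05 points at 24 hpf and 0.01 points at 36 hpf.

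The 2 PGC libraries lay below the 2 soma libraries in 1344 runs (17.2%, all regions 10.4%) at 24 hpf and above them in 996 (12.7%, all regions 22.7%). At 36 hpf the counts were 1011 below (12.9%, all regions 14.9%) and 1068 above (13.7%, all regions 15.8%). At 24 hpf PGCs thus lay below soma in more runs than above, and the other low bins showed the same order. In runs of 4 kb or more PGCs lay below in 18.4% and above in 11.1%, and in single low bins in 16.5% and 11.97%. With 2 libraries against 2 such separation is frequent without any difference. All runs also share the same libraries, so an offset of 1 library would move many runs at once. These counts therefore do not show a difference between the cell types. All regions together leaned to higher values. Over the runs, which share libraries, the levels of both cell types correlated with an r of 0.950 at 24 hpf and 0.975 at 36 hpf.

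The average difference at 24 hpf was larger in the runs that were methylated at 36 hpf. Averaged over the 321 runs at 15% or more at 36 hpf, PGC replicates 1 and 2 stood at 8.40% and 7.00% in gastrulae (7 hpf), then at 21.6% and 18.6% and finally at 29.4% and 27.1% in the pharyngula stages of 24 and 36 hpf. The soma replicates passed through 7.50% and 8.12%, 25.9% and 23.8%, and 28.4% and 27.5%. At 24 hpf both PGC values were below both soma values, and at 7 and 36 hpf the values of the cell types overlapped.

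The average of PGC minus soma over these 321 runs at 24 hpf was -4.74 points (-4.34 in replicate 1, -5.15 in replicate 2). By 36 hpf it was 0.26 points (0.95 in replicate 1, -0.42 in replicate 2). At 24 hpf PGCs were lower than soma of the same replicate number in both replicates in 185 of the 321 (57.6%) and higher in both in 21 (6.54%). In the other 7509 runs these shares were 27.0% and 22.4%. Equal replicate numbers are not known to mark paired libraries. All runs share the same libraries, so an offset of 1 library would move many of them at once. Of the 321, 316 had enough calls to be tested. Both PGC libraries lay below both soma libraries at 24 hpf in 133 of these (42.1%, all regions 10.4%). They lay above in 10 (3.16%, all regions 22.7%). In the other 7509 runs the average difference at 24 hpf was -0.08 points. Their pooled levels then were 1.96% in PGCs and 2.04% in soma, which left little room for lower values in PGCs. PGCs had covered 63.0% and 57.8% of their rise from 7 to 36 hpf by 24 hpf, and soma 88.2% and 80.6%, in replicates 1 and 2. The 7 hpf libraries helped choose all runs and the 36 hpf libraries chose these 321, so both ends of this rise were selected. These shares are a description only. Picking the runs from the 2 PGC libraries at 36 hpf alone or from the 2 soma libraries alone, 2 choices made once the data had been seen, left the average at -4.73 points over 330 runs and at -4.57 points over 325. Since the runs were picked by their late level, this average was not tested.

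**Figure D5:**
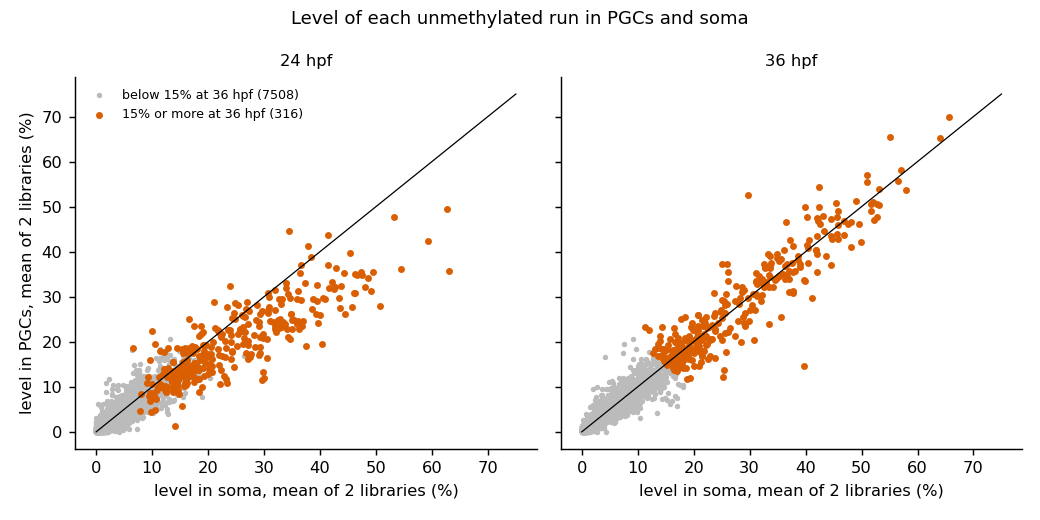
Level of each tested run in PGCs against its level in soma (%, means of 2 libraries) at 24 hpf, left, and 36 hpf, right; orange marks the 316 runs at 15% or more at 36 hpf, grey the other 7508, and the line equality. At 24 hpf most orange points lie below the line, and at 36 hpf they lie about it.

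No run was called between the cell types, and the 3 of the smallest p at each stage are given as values only. At 24 hpf the run at chr6:50766001-50768000 had 13.2% and 10.5% in PGCs and 2.81% and 1.90% in soma (edgeR adjusted p = 0.976), which is higher in PGCs. Its levels at 36 hpf, 13.7% and 7.06% in PGCs and 8.91% and 13.0% in soma, overlapped. The run at chr23:18760001-18762000 had 0.658% and 0.993% in PGCs and 6.67% and 4.42% in soma, and that at chr3:54737001-54739000 had 1.41% and 1.42% in PGCs and 3.63% and 5.04% in soma, both lower in PGCs (edgeR adjusted p = 1 for each).

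At 36 hpf the 3 runs of the smallest p were all below 7% in every library of that stage. The run at chr4:16323001-16325000 had 1.23% and 0.703% in PGCs and 0.130% and 0.282% in soma. The run at chr9:29768001-29770000 had 1.03% and 1.13% in PGCs and 0.162% and 0.138% in soma. In both runs the soma values lay within or below the 0.233% to 0.452% of lambda cytosines read as methylated in replicate 1. The run at chr16:21682001-21684000 was lower in PGCs, with 0.610% and 1.07% against 6.07% and 1.74% in soma, where the soma libraries differed more from each other than the lower one did from PGCs. The edgeR adjusted p was 1 for each of the 3.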

How the data were processed

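Whole-genome bisulfite libraries were prepared with the Accel-NGS Methyl-Seq kit, 2 per cell type and stage. The labels and the paper's methods name fastp 0.12.5 for trimming, WALT for mapping to danRer10 plus lambda, Picard 2.3.0 for duplicates and MethylDackel for calling, all run by the authors. The deposited values are raw counts per CpG, methylated calls and all calls, in 1 table per replicate number, which set the replicate. No other sample columns were present (0). Calls per library ranged from 25742797 to 250228430. The shallowest libraries, at 4 hpf, weigh least in the rule. Reads are not independent molecules.

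Positions are printed counted from 1. Counts were summed per run and per remaining 1 kb bin, and a level is methylated over all calls. Regions were tested with edgeR 4.0.16 (R 4.3.3): quasi-likelihood F-tests with a term per library, effects of cell type plus stage, or of the 4 groups for contrasts within a stage or cell type. The dispersion came from 5000 regions. The alternative was limma 3.58.1. Python 3.11.15 with numpy 2.4.6 did the rest. On simulated data with the real coverage the test recovered a part of the changes between stages but no change between the cell types at 24 hpf, so counts of 0 there say little.

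Named regions were the 5 called with the largest rise and fall from 24 to 36 hpf and the 5 highest at 36 hpf (at least 50 calls in each late library), the 3 of the smallest p for PGCs against soma at either late stage where none was called, and the 3 with the most CpGs. No fall was called. The runs and this rule were chosen with earlier results of these data known. Genes of the study's list were not looked up, since no annotation of danRer10 was used here, and no run sequences are given.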

Additional observations from a re-analysis of the deposited data

Results flagged for a closer look

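Of the named runs, 3 moved in opposite directions in the 2 cell types between 24 and 36 hpf, with no overlap of the libraries in either. The run at chr23:18760001-18762000 went from a mean of 0.826% to 4.62% in PGCs and from 5.54% to 3.06% in soma, a difference in change of 6.27 points (edgeR interaction, adjusted p = 1). The run at chr3:54737001-54739000 went from 1.41% to 3.44% in PGCs and from 4.33% to 2.96% in soma, a difference in change of 3.40 points (edgeR interaction, adjusted p = 1). The run at chr9:29768001-29770000 went from 0.300% to 1.08% in PGCs and from 0.647% to 0.150% in soma, a difference in change of 1.28 points (edgeR interaction, adjusted p = 1). Its late levels, 0.138% to 1.13%, lay close to the share of lambda cytosines read as methylated in replicate 1 (0.233% to 0.452%). Incomplete conversion and methylation cannot be told apart there. All 3 had been named for a small p between the cell types at 1 of these stages, which shifts such changes in that direction.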

How the results depend on the processing

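The count of runs called between 24 and 36 hpf depended most on the settings. With no minimum difference 20 runs were called higher and 6 lower, and 1 run lower within PGCs; with a minimum of 20 points 1 was called higher. limma on the arcsine square root of the level called 0, in both cell types together and within PGCs, with 166 higher and 20 lower at an unadjusted p under 0.05 in both together. Leaving out 1 late library gave 0 to 6 called higher and 0 to 1 lower for both cell types, and 0 to 1 higher within PGCs. The 1 lower was at chr25:28328001-28330000 and appeared without replicate 2 of soma at 24 hpf. The counts of PGCs against soma were also 0 in the alternatives run, which says nothing about stability.

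Same-numbered libraries deviated together, with correlations of 0.144 to 0.226 over all regions and 0.294 to 0.465 over the runs, but 2 numbers a group are too few to decide whether these libraries are paired. With the replicate block 17 runs were called higher, all 7 among them, and 1 lower, and within PGCs 14 higher and 1 lower, and within soma 1 higher.

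The share of runs at 15% or more at 36 hpf was 2.49% when low bins were below 10% and 6.27% when below 20%. It was 3.72% with bins shifted by 500 bases, 4.03% with at least 100 calls, 4.36% with the rule on replicate 1 alone and, chosen after seeing the data, 3.89% in runs closed by methylated bins. PGC minus soma at 24 hpf in the runs at 15% or more at 36 hpf ranged from -5.15 to -4.34 points without a replicate, and was -6.02 points in the 226 runs with all 4 libraries at 36 hpf at 15% or more, a choice made after seeing the data.

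Depth was lowest at 4 hpf, and restricting to CpGs with at least 5 calls moved the pooled level there from 1.71% to 1.32% in PGCs and from 1.85% to 1.39% in soma.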

Other observations

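In 3 runs the mean of the 4 libraries was lower at 36 hpf than at 24 hpf by 10 points or more, none called, and in each of them the libraries of replicate 1 at 24 hpf stood far above those of replicate 2 in both cell types. At chr5:65105001-65107000, with 14 listed CpGs and as few as 23 calls, the 24 hpf libraries of replicate 1 had 52.2% (PGC) and 56.1% (soma) and those of replicate 2 had 7.27% and 13.0%. At chr25:28328001-28330000 PGCs had 31.9% in replicate 1 and 9.47% in replicate 2, and soma 25% and 1.35%. At chr22:28275001-28277000, with 9 CpGs, they were 21.9% and 29.3% in replicate 1 and 2.17% and 11.4% in replicate 2. These runs were picked after their values were seen.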
